A study of Mus musculus with 12 samples.

Results

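PKO-1 and PKO-6 are a pair of mouse embryonic fibroblast (MEF) clones that carry the same knockout of *Pnpt1*, and their RNA was compared over the autosomes. Every gene of the deposited gene table with an autosomal position was taken, which gave 23332 of 24453 genes, and 13558 of them had enough counts to be tested. The study sequenced RNA from 4 MEF lines with 3 cultures each, 12 samples in all. Each sample was made into technical duplicate libraries whose reads the authors merged, and the merged reads of a sample are called a library below. The 6 PKO libraries are compared here. Strain C57BL6/J is given for all lines, and the genotype before excision is Pnpt1 neo-flox/neo-flox. PKO-1 and PKO-6 each grew from a single cell after Adenoviral-Cre, the parental TM6 line had no such treatment, and the rho0 line was made from TM6 with ditercalinium dichloride dihydrochloride. All 4 lines grew with uridine at 50 µg/mL. The MEFs had been immortalised with SV40, whose large T antigen binds p53 and the RB proteins, and each PKO line is 1 clone, so each spread given below is among sister cultures of that clone. TM6 and rho0 levels are given only as a description, with no test.

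*Pnpt1* encodes polynucleotide phosphorylase (PNPase), an enzyme of mitochondria that trims and degrades RNA from its 3' end. Fibroblasts make the collagens, elastic fibres and proteoglycans of connective tissue, and those taken from whole embryos come from many body sites, which they recall through Hox and other patterning genes. A line grown from a single cell passes on the state of its founder, so sister clones are compared to see how far lines with the same edit differ.

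The targeted gene comes first. *Pnpt1* (chr11:29130751-29161828, plus strand, GRCm38) had 1254, 1191 and 1276 normalized counts in the PKO-1 cultures and 1897, 1720 and 2214 in those of PKO-6. PKO-6 was higher in every culture, and both clones lay below the 3131 ± 262 (SD, n = 3) of TM6 and the 5271 ± 230 of rho0. The log2 fold change of PKO-1 over PKO-6, the direction used throughout, was -0.65 (SE 0.0864, adjusted p = 1.92e-05, edgeR quasi-likelihood test). A normalized count is a count divided by the library's effective size, relative to the mean of all 12. Cre removes a part of the gene near its start while the counts cover the whole gene, so they check the knockout label only in part. The call of *Pnpt1* ended where a log2 fold change above 1 was asked for, and in a test against 0.5.

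Total counts were 47164832, 54007038 and 54344390 in the PKO-1 libraries and 67991336, 56466864 and 53260380 in those of PKO-6. The ribosomal precursor *Rn45s* took 13.2%, 14.4% and 15.7% of the PKO-1 totals and 17.8%, 19.2% and 12.2% of the PKO-6 totals. PKO-6 replicate 3 stood apart from its sisters. Over the 10763 autosomal genes that averaged 100 normalized counts or more, it differed from replicates 1 and 2 by a median of 0.111 and 0.160 in log2 normalized counts, against 0.0842 between replicates 1 and 2 and 0.0594 to 0.0834 among the PKO-1 libraries. Pairs drawn from different clones were 0.294 to 0.327 apart. Its part in the results was measured by leaving it out, and without it 3851 genes were called in place of 3930.

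A gene is called where its adjusted p is below 0.01 and its log2 fold change above 0.5 in size. By that rule 3930 of the 13558 tested autosomal genes (29.0%) differed between the clones, of which 1535 (11.3%) were higher in PKO-1 and 2395 (17.7%) lower. The 3 cultures of one clone lay wholly above those of the other for 9007 genes (66.4%, where chance gives 10% for 3 against 3), among them all 3930 called. The median log2 fold change over all tested genes was -0.02, its median size was 0.341, and 1 gene in 10 exceeded 1.50. Large differences leaned towards PKO-6: at a size above 2 there were 214 genes higher in PKO-1 and 696 lower, and above 4 there were 64 and 260. Genes called higher in PKO-1 had a TM6 level nearer to PKO-1 in 1011 cases (65.9%) and nearer to PKO-6 in 524. For genes called lower in PKO-1 the TM6 level was nearer to PKO-1 in 1515 (63.3%), and for genes not called in 5228 (54.3%). In rho0 the level was nearer to PKO-6 for 1053 of the genes called higher (68.6%), 1441 of those called lower (60.2%) and 5734 of those not called (59.6%). The libraries were strand-specific, but the way the counts used strand is not stated. Some genes named below overlap a gene on the opposite strand, so part of their counts could belong to that gene: *Aspn*, *B2m*, *Bmp6*, *Cox6a2*, *Ddit3*, *Dlx1*, *Elovl3*, *Gadd45a*, *Itgb4*, *Loxl3*, *Ltbp2*, *Mavs*, *Nr2f2*, *Polg2* and *Tk1*, besides those noted in their place. *Foxm1* overlaps a gene on its own strand.

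Some of the genes with the largest differences follow. *Rcn1*, a calcium-binding protein of the endoplasmic reticulum on chromosome 2, had 2471, 2288 and 2211 normalized counts in PKO-1 and 1.64, 0 and 7.76 in PKO-6. It was abundant in PKO-1 and very low in PKO-6, at a log2 fold change of 9.49 (SE 0.227, adjusted p = 1e-12, edgeR quasi-likelihood test), with 3092 ± 144 in TM6. *Slc14a1*, a urea transporter, had 7134, 7015 and 7459 normalized counts in PKO-1 and 19.7, 33.2 and 19.4 in PKO-6. Here PKO-1 was the line that stood out, since TM6 had 39.7 ± 12.1 and rho0 162 ± 47.3. *Slit3*, a secreted guidance cue, had 2750, 3015 and 2968 in PKO-1 against 19.7, 15.5 and 15.5 in PKO-6, and 243 ± 21.4 in TM6. The clones were far apart, at a log2 fold change of 7.40 (SE 0.128). *Adgrl2*, an adhesion receptor coupled to G proteins, had 3972, 4139 and 4033 normalized counts in PKO-1 and 106, 108 and 103 in PKO-6, and PKO-1 resembled TM6 at 3730 ± 153. The Wnt antagonist *Dkk2* had a mean of 267 ± 33.8 in PKO-1 and 2.83 ± 2.60 in PKO-6. *Chst10*, a sulfotransferase that acts on glycans, had means of 226 ± 21.1 and 5.62 ± 1.69, and the kinase gene *Ttbk1* 304 ± 10.6 and 4.54 ± 1.85.

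On the other side stood genes that PKO-6 expressed and PKO-1 hardly did. *Thsd4*, a secreted protein of the ADAMTS-like family that binds fibrillin, had 16.7, 19.2 and 10.3 normalized counts in PKO-1 and 2040, 2038 and 1923 in PKO-6. PKO-6 was high in every culture, rho0 had 1142 ± 53.6, and TM6 was low at 43.8 ± 7.68; the log2 fold change was -7.02 (SE 0.143, adjusted p = 3.31e-13, edgeR quasi-likelihood test). *Rin3*, a regulator of the small GTPase RAB5, had 5.95, 5.33 and 5.17 in PKO-1 and 923, 949 and 809 in PKO-6. For this gene PKO-1 was the low line, with 750 ± 5.82 in TM6 and 347 ± 24.1 in rho0. *Cdh22*, a cadherin, had 3.57, 4.26 and 6.21 in PKO-1 and 694, 718 and 641 in PKO-6, while TM6 had 0 counts in all its libraries. The transcription factor gene *Mycl* had means of 2.52 ± 2.43 and 342 ± 29.6. *Dcdc2a*, a microtubule-binding protein, had 1.19, 2.13 and 0 normalized counts in PKO-1 and 1138, 850 and 1267 in PKO-6, with TM6 also near 0 at 0.621 ± 0.542. *Lmo1* and *Afap1l1* had no PKO-1 library above 3.10 and PKO-6 means of 298 ± 45.5 and 291 ± 33.7. *Slc52a3*, a riboflavin transporter, had no count in any PKO-1 library and 308, 345 and 270 normalized counts in PKO-6, at least 93.5-fold higher when PKO-1 is set to a floor of 3 counts per library.

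**Figure D1:**
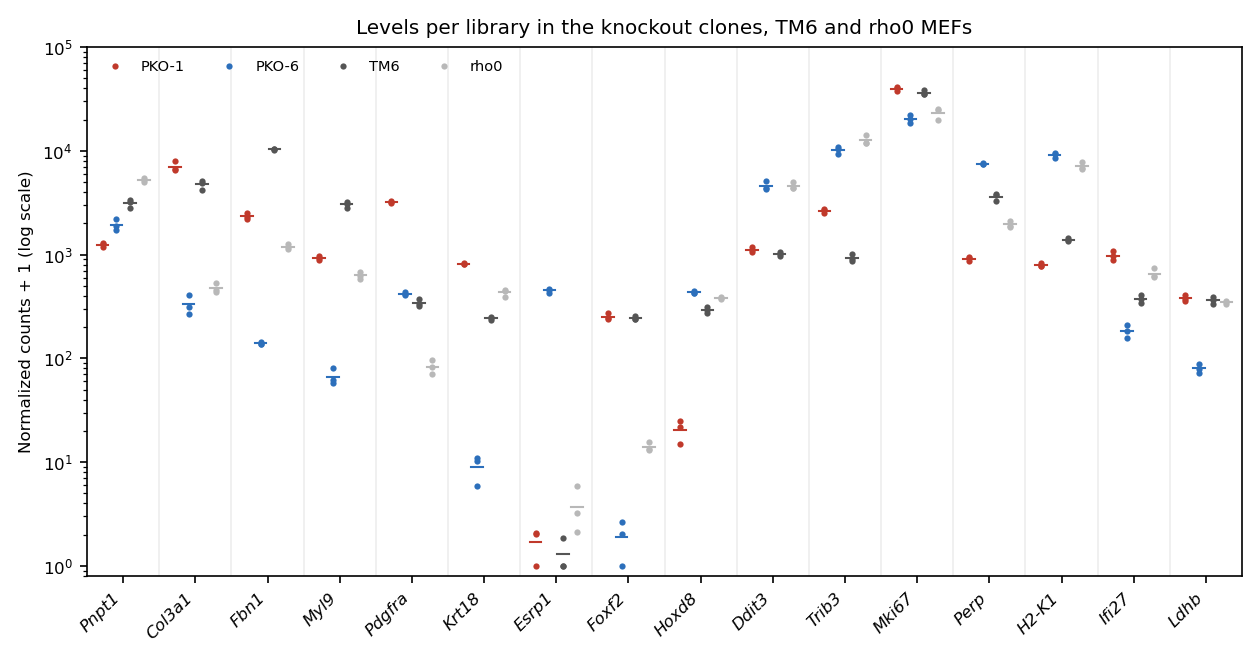
Normalized counts plus 1 (log axis) of 16 genes in each of the 3 cultures of PKO-1, PKO-6, TM6 and rho0, with points for cultures and short lines for means. *Col3a1*, *Fbn1*, *Myl9* and *Krt18* are high in PKO-1 and low in PKO-6, while *Esrp1*, *Hoxd8*, *Perp* and *H2-K1* are the other way round.

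Both clones expressed genes that define cultured fibroblasts, at different summed levels. The summed level of the 22 fibroblast markers was 7973, 7891 and 8128 TPM (the authors' abundance per transcript length, scaled to a fixed total) in the PKO-1 libraries and 3776, 4148 and 4058 in those of PKO-6. TM6 had 7572, 7735 and 7526, close to PKO-1, and rho0 had 4491, 4431 and 4548, close to PKO-6. The calcium-binding protein *S100a4* had a mean of 2643 TPM in PKO-1 and 730 in PKO-6, and 3 of the 22 markers were under 1 TPM in all PKO libraries. Of 20 tested markers 14 were called higher in PKO-1 and 0 lower, with a median log2 fold change of 1.09, beside 11.3%, 17.7% and -0.02 over all tested genes. In bulk RNA, fewer cells of a type and less RNA per cell cannot be told apart. *Col3a1*, a fibrillar collagen of soft tissues, had 6539, 6597 and 7897 normalized counts in PKO-1 and 313, 407 and 268 in PKO-6. Every PKO-1 culture was higher, at a log2 fold change of 4.42 (SE 0.141, adjusted p = 1.52e-11, edgeR quasi-likelihood test), with 4765 ± 477 in TM6 and 476 ± 52.3 in rho0. *Pdgfra*, the receptor for platelet-derived growth factor that marks fibroblasts, had 3214, 3295 and 3167 in PKO-1 and 431, 402 and 411 in PKO-6. PKO-1 was again the high clone, but here TM6, at 342 ± 27.4, lay with PKO-6; the log2 fold change was 2.96 (SE 0.0806). The collagen VI chains *Col6a1* and *Col6a2* were higher in PKO-1 than in PKO-6, with log2 fold changes of 1.53 (SE 0.0755) and 1.58 (SE 0.0723). Fibronectin, *Fn1*, among the most abundant messages, had 248198, 277799 and 251322 normalized counts in PKO-1 and 207639, 207244 and 210374 in PKO-6, and its log2 fold change of 0.31 (SE 0.0654) was too small to be called. The proteoglycan *Dcn* and the fibulin *Fbln2* were not called either, with log2 fold changes of 0.33 (adjusted p = 0.152, edgeR) and 0.17 (adjusted p = 0.133, edgeR).

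Among 27 tested collagens 11 (40.7%) were called higher in PKO-1 and 5 (18.5%) lower, beside 11.3% and 17.7% of all tested genes, with a median log2 fold change of 0.23. That median was 0.36 without PKO-6 replicate 1 and 0.35 with chromosome medians removed, a setting applied to lists after the data were seen. *Col6a3*, which joins the other collagen VI chains, had 20136, 23096 and 21883 normalized counts in PKO-1 and 1056, 1150 and 1000 in PKO-6. The clones did not overlap, at a log2 fold change of 4.34 (SE 0.0806, adjusted p = 1.58e-13, edgeR quasi-likelihood test). Chains of basement membrane collagen split by their gene pair. *Col4a1* had 3732, 3831 and 3816 in PKO-1 and 956, 1060 and 891 in PKO-6, while *Col4a3* had 44.0, 35.1 and 38.3 in PKO-1 and 292, 235 and 303 in PKO-6. The first pair was higher in PKO-1, at log2 fold changes of 1.97 for *Col4a1* and 1.90 for *Col4a2*, and the second lower, at -2.82 for *Col4a3* and -2.52 for *Col4a4*. *Col4a1* and *Col4a2* overlap on opposite strands, and the way the counts used strand is not stated, so their separate levels are uncertain.

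Of 46 tested matrix proteins 23 (50.0%) were called higher in PKO-1 and 6 lower, against 11.3% and 17.7% of all tested genes, with a median of 0.72. *Fbn1*, fibrillin, the scaffold of microfibrils, had 2296, 2537 and 2210 normalized counts in PKO-1 and 135, 136 and 144 in PKO-6. PKO-1 was higher throughout, at a log2 fold change of 4.08 (SE 0.0740, adjusted p = 1.39e-13, edgeR quasi-likelihood test), and TM6 was higher still at 10318 ± 200. *Ltbp2*, which binds fibrillin, had means of 538 ± 36.9 and 91.1 ± 20.2, and *Loxl3*, an oxidase that crosslinks collagen and elastin, 8257 ± 598 and 812 ± 39.0. Asporin, *Aspn*, a small proteoglycan, had 949, 782 and 862 in PKO-1 and 45.9, 39.4 and 58.2 in PKO-6, with no overlap. *Tgfbi*, a matrix protein that TGF-beta induces, had 319, 265 and 356 against 15.6, 25.9 and 24.2, likewise without overlap.

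Of 33 tested matrix proteases and inhibitors 8 were called higher in PKO-1 and 8 lower, 24.2% each way beside 11.3% and 17.7% of all tested genes (median -0.30, or -0.18 with chromosome medians removed). The aggrecanase *Adamts5* had 9591, 9626 and 9435 normalized counts in PKO-1 and 1996, 2040 and 2011 in PKO-6, so PKO-1 was higher in every culture (log2 fold change 2.24, SE 0.0515). Stromelysin, *Mmp3*, had 33.3, 12.8 and 23.8 in PKO-1 and 214, 294 and 206 in PKO-6, the reverse order (log2 fold change -3.36, SE 0.272). The protease inhibitor *Serpine2* had 0, 1.07 and 0 in PKO-1 and 131, 138 and 143 in PKO-6.

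Of 28 tested integrins and laminins, which anchor cells to matrix, 6 (21.4%) were called higher in PKO-1 and 12 (42.9%) lower, with a median of -0.39, beside 11.3% and 17.7% of all tested genes. *Itgb7*, an integrin chain best known from lymphocytes, had 214, 247 and 229 normalized counts in PKO-1 and 3396, 3644 and 2879 in PKO-6. PKO-6 was the only one of the 4 lines at this level, since TM6 had 181 ± 22.6 and rho0 181 ± 7.16, and the log2 fold change was -3.84 (SE 0.107, adjusted p = 4.31e-12, edgeR quasi-likelihood test). *Itgb4*, part of the anchors of epithelial cells, was lower in PKO-1 by a log2 fold change of -2.17 (SE 0.152). Cadherins and junction genes had 8 of 26 called higher in PKO-1 (30.8%) and 9 lower (34.6%, median -0.12). Their median was -0.01 without PKO-6 replicate 3 and -0.34 with chromosome medians removed. Plakoglobin, *Jup*, had 1303, 1401 and 1451 in PKO-1 and 415, 525 and 391 in PKO-6, whereas its desmosomal partner *Pkp1* had 67.9, 74.6 and 81.7 in PKO-1 and 607, 595 and 526 in PKO-6. These genes of one structure thus lay on opposite sides, and neither overlapped between the clones.

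Among 18 tested contractile genes 5 (27.8%) were called higher in PKO-1 and 0 lower (1 lower without PKO-1 replicate 3), against 11.3% and 17.7% of all tested genes, with a median of 0.24 (0.40 with chromosome medians removed). The myosin light chain *Myl9* had 892, 933 and 956 normalized counts in PKO-1 and 56.5, 79.8 and 60.1 in PKO-6. Smooth muscle actin, *Acta2*, the marker of myofibroblasts, had 449, 507 and 496 in PKO-1 and 92.5, 53.9 and 82.4 in PKO-6. Both genes were higher in every PKO-1 culture, at log2 fold changes of 3.83 (SE 0.111) and 2.65 (SE 0.142), yet both clones were far below TM6, which had 11554 ± 303 for *Acta2*. *Cnn2*, a calponin of non-muscle cells, was not called, with a log2 fold change of 0.22 (adjusted p = 0.0492, edgeR).

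**Figure D2:**
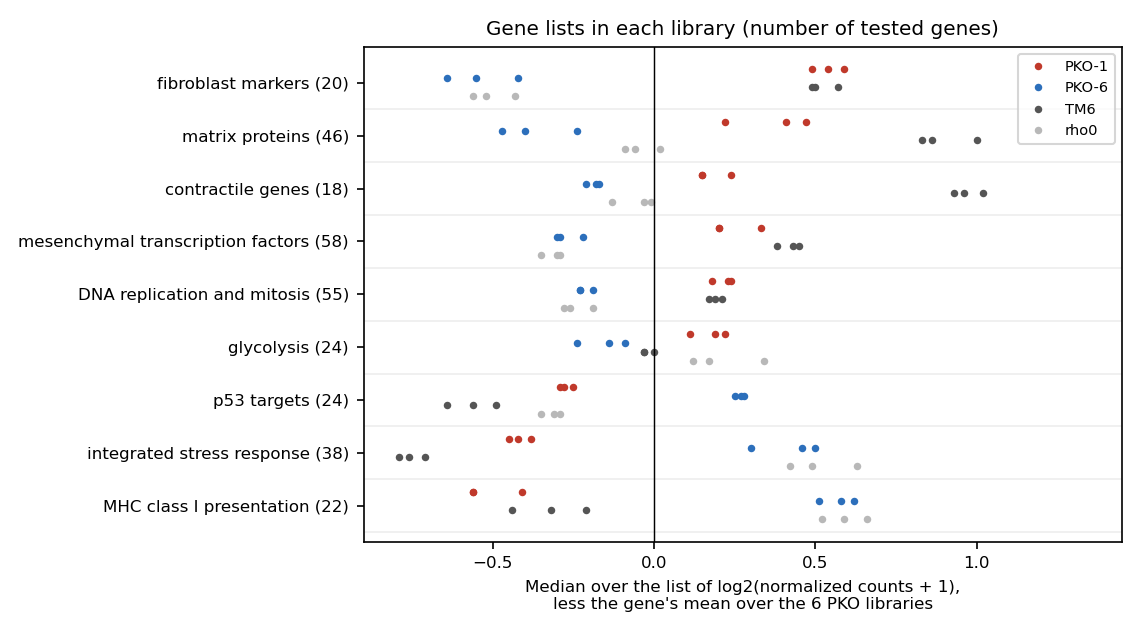
Median over each gene list of log2(normalized counts + 1) less the gene's mean over the 6 PKO libraries, 1 point per library, with the number of tested genes in brackets. Fibroblast markers lie between 0.49 and 0.59 in PKO-1 and between -0.64 and -0.42 in PKO-6, and the integrated stress response between -0.45 and -0.38 in PKO-1 and between 0.30 and 0.50 in PKO-6.

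Markers of other cell types were summed in the same way, and their calls stand beside 11.3% higher and 17.7% lower of all tested genes. Epithelial markers summed to 83.1, 81.8 and 83.3 TPM in PKO-1 and 137, 130 and 135 in PKO-6. TM6 was lower than both clones at 50.6, 53.1 and 53.2, and rho0 was the highest line at 294, 281 and 283. Of 8 tested genes (18 in the list) 1 was called higher in PKO-1 and 4 lower (median -0.89). *Krt19* was the most abundant, at a mean of 32.2 TPM in PKO-1 and 76.5 in PKO-6, and *Krt5* had 0 in all PKO libraries. *Krt18*, a keratin of simple epithelia, had 811, 833 and 806 normalized counts in PKO-1 and 9.83, 9.33 and 4.85 in PKO-6, whereas *Esrp1*, a splicing regulator of epithelial cells, had 0, 1.07 and 1.03 in PKO-1 and 466, 454 and 429 in PKO-6. No clone was thus high for the whole list, but by sign 1 of the 8 tested genes leaned to PKO-1 and 7 to PKO-6. *Krt18* was alone on the PKO-1 side and *Esrp1* was among those of PKO-6, with no overlap for either. Bone and cartilage markers summed to 1501, 1327 and 1627 TPM in PKO-1 and 514, 536 and 650 in PKO-6, mostly osteopontin, *Spp1*, at means of 1458 and 550 TPM. Of 13 such genes 5 were tested, 3 called higher in PKO-1 and 0 lower (median 0.92, and 1 lower with chromosome medians removed), while *Col9a1* and *Ibsp* had 0. *Alpl*, the alkaline phosphatase of osteoblasts, had 261, 277 and 218 normalized counts in PKO-1 and 20.5, 16.6 and 17.5 in PKO-6, all PKO-1 cultures being higher. *Sox9*, a master regulator of cartilage, was not called at a log2 fold change of -0.42 (SE 0.0662, adjusted p = 9.5e-05, edgeR).

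The list of 14 skeletal muscle markers summed to 6.74, 5.83 and 6.64 TPM in PKO-1 and 20.8, 21.5 and 26.3 in PKO-6. Nearly all of it was *Tnnt2* (means 5.83 and 22.1), so the sums describe that gene and not the list. The other 13 were under 1 TPM in all PKO libraries, with *Myf5*, *Myf6*, *Myl1*, *Myog* and *Tmem8c* at 0. Of 3 tested genes 0 were called higher and 1 lower (median -0.98, and 2 of 4 lower with a median of -1.04 without PKO-1 replicate 3). Neural markers summed to 56.2, 53.9 and 58.0 TPM in PKO-1 and 46.5, 48.4 and 56.6 in PKO-6, with *Nes* at means of 22.4 and 34.7. Of 6 tested genes 2 were called in each direction (median 0.29, or 0.15 to 0.51 with single libraries left out), and *Nefl*, *Nefm*, *Olig2*, *Snap25* and *Stmn2* were at 0. Leukocyte markers summed to 10.7, 10.1 and 11.1 TPM in PKO-1 and 14.4, 12.8 and 13.5 in PKO-6, with *Cd14* at means of 7.77 and 6.23, 0 of 4 tested genes called higher and 2 lower (median -0.67, or -1.02 to -0.86 with single libraries left out). *Adgre1*, *Cd3e*, *Laptm5* and *Tyrobp*, which define leukocytes, had 0 in all PKO libraries. Endothelial markers summed to under 1 TPM in each PKO-1 library and to 1.49, 1.72 and 1.67 in PKO-6, with *Vwf* at means of 0.377 and 0.543, 0 of 4 tested genes called higher and 1 lower (median -0.84, or -1.32 to -0.62 with single libraries left out), and *Emcn*, *Erg*, *Sox17* and *Tie1* at 0. Adipocyte markers summed to 5.64, 5.39 and 6.65 TPM in PKO-1 and 5.85, 6.05 and 7.20 in PKO-6, led by *Pparg*, with 0 of 3 tested genes called higher and 1 lower (median -0.70, or -0.83 to -0.41 with single libraries left out), and *Lep*, *Plin1* and *Retn* at 0. These lists hold few tested genes, and of all tested genes 11.3% were called higher and 17.7% lower. The part of these genes in the other results was not tested.

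Of 35 tested Hox genes 6 (17.1%) were called higher in PKO-1 and 14 (40.0%) lower, beside 11.3% and 17.7% of all tested genes. Their median of -0.50 was -0.33 without PKO-6 replicate 3 and -0.37 with chromosome medians removed. Of the 35, 10 had 3 counts or fewer in every library of at least 1 clone. *Hoxa10*, on chromosome 6, had 4040, 3806 and 3891 normalized counts in PKO-1 and 1584, 1541 and 1517 in PKO-6. PKO-1 was higher in every culture, at a log2 fold change of 1.34 (SE 0.0490, adjusted p = 5.08e-11, edgeR quasi-likelihood test). *Hoxd8*, on chromosome 2, had 23.8, 13.8 and 20.7 in PKO-1 and 422, 427 and 441 in PKO-6, and *Hoxb7*, on chromosome 11, had 31.0, 28.8 and 30.0 in PKO-1 and 347, 343 and 343 in PKO-6. Both were low in every PKO-1 culture, at log2 fold changes of -4.47 (SE 0.141) and -3.52 (SE 0.141), and TM6 differed between them, at 293 ± 21.0 for *Hoxd8* and 63.5 ± 4.73 for *Hoxb7*. *Hoxb9* had 1.19, 0 and 2.07 in PKO-1 and 129, 121 and 113 in PKO-6, close to the 118 ± 2.13 of TM6. *Hoxc6* was not called, at 0.11 (adjusted p = 0.177, edgeR). *Hoxa3*, called higher in PKO-1 at a log2 fold change of 0.94, overlaps neighbouring Hox genes on the same strand, so its own level is uncertain.

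Other transcription factors of the mesenchyme had 27 of 58 tested called higher in PKO-1 (46.6%) and 11 lower, beside 11.3% and 17.7% of all tested genes (median 0.54). That median ran from 0.40 to 0.50 with single libraries left out. It was 0.44 without *Rn45s* and 0.57 with chromosome medians removed. *Foxf2*, a forkhead factor of gut and limb mesenchyme, had 243, 272 and 240 normalized counts in PKO-1, which TM6 matched at 242 ± 8.93, and 1.64, 1.04 and 0 in PKO-6. *Nr2f2*, a nuclear receptor of mesenchyme and veins, had 8313, 8092 and 8194 in PKO-1 and 1828, 1797 and 1863 in PKO-6. PKO-1 was the higher clone for both, at a log2 fold change of 2.16 (SE 0.0459, adjusted p = 4.34e-13, edgeR quasi-likelihood test) for *Nr2f2*. *Gata3* had 23.8, 42.6 and 26.9 in PKO-1 and 180, 205 and 175 in PKO-6, and *Irx1* had 66.7, 67.1 and 47.6 in PKO-1 and 372, 412 and 326 in PKO-6. These factors were lower in PKO-1, and both clones stayed far below TM6, which had 1326 ± 48.8 for *Gata3* and 2129 ± 120 for *Irx1*. *Dlx1*, a homeobox factor, was higher in PKO-1 by a log2 fold change of 1.66 (SE 0.110).

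Of 57 tested axon guidance genes, which fibroblasts use in migration, 14 (24.6%) were called higher in PKO-1 and 16 (28.1%) lower, beside 11.3% and 17.7% of all tested genes (median 0.06). Their median ran from -0.01 to 0.08 with single libraries left out, and was -0.01 without PKO-6 replicate 3. *Sema4f*, a membrane semaphorin, had 10.7, 7.46 and 20.7 normalized counts in PKO-1 and 644, 617 and 548 in PKO-6, and *Plxnb1*, a semaphorin receptor, had 15.5, 13.8 and 17.6 against 326, 335 and 298. Neuropilin, *Nrp1*, a co-receptor of other semaphorins, had 5235, 5017 and 4962 in PKO-1 and 1138, 1337 and 1140 in PKO-6. The clones thus differed in their semaphorin components, at log2 fold changes of -5.51 (SE 0.208) for *Sema4f*, -4.34 (SE 0.154) for *Plxnb1* and 2.07 (SE 0.0690) for *Nrp1*.

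Among 37 tested Wnt genes 10 (27.0%) were called higher in PKO-1 and 15 (40.5%) lower, against 11.3% and 17.7% of all tested genes, with a median of -0.24 that was -0.51 without PKO-1 replicate 3, and -0.40 and -0.37 without PKO-6 replicates 2 and 3. The ligand *Wnt7a* had 3.57, 8.52 and 15.5 normalized counts in PKO-1 and 648, 711 and 604 in PKO-6, well above the 110 ± 14.2 of TM6. *Nkd2*, an inhibitor inside the cell, had 7.14, 12.8 and 11.4 in PKO-1 and 410, 435 and 415 in PKO-6. The secreted enhancer *Rspo2* had 371, 346 and 385 in PKO-1 and 40.9, 48.7 and 33.0 in PKO-6. PKO-6 was high for the ligand and the inhibitor and PKO-1 for the enhancer, with log2 fold changes of -6.10 (SE 0.283), -5.30 (SE 0.235) and 3.17 (SE 0.119). The receptor gene *Lrp5* was not called, at -0.13 (adjusted p = 0.154, edgeR).

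Genes of TGF-beta and BMP signalling had 12 of 43 called higher and 12 lower, 27.9% each way beside 11.3% and 17.7% of all tested genes, with a median of -0.08 that was 0.00 with each chromosome's median removed. *Id2*, which BMP signals induce, had 4076, 3721 and 4243 normalized counts in PKO-1 and 647, 677 and 692 in PKO-6. Betaglycan, *Tgfbr3*, had 10458, 10971 and 10480 in PKO-1 and 3148, 3388 and 3033 in PKO-6. Both were higher in every PKO-1 culture, at log2 fold changes of 2.58 (SE 0.0831) and 1.74 (SE 0.0574), while the ligand *Bmp6* was lower at -1.69 (SE 0.133).

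Growth factors and receptors had 17 of 54 called higher in PKO-1 (31.5%) and 19 lower (35.2%), against 11.3% and 17.7% of all tested genes. Their median of 0.07 fell to -0.08 with chromosome medians removed and ran from 0.02 to 0.09 with single libraries left out. *Flt4*, the VEGF receptor of lymphatic vessels, had 60.7, 52.2 and 55.8 normalized counts in PKO-1 and 2166, 2497 and 2145 in PKO-6. Only PKO-6 was at this level, with 124 ± 9.50 in TM6 and a mean of 17.7 in rho0, and the log2 fold change was -5.33 (SE 0.104, adjusted p = 2.43e-13, edgeR quasi-likelihood test). *Igfbp3*, which binds insulin-like growth factors, had 421, 464 and 412 in PKO-1 and 19.7, 21.8 and 17.5 in PKO-6. *Tgfa*, a ligand of the EGF receptor, had 115, 79.9 and 112 in PKO-1 and 1329, 1426 and 1269 in PKO-6. The binding protein was thus high in PKO-1 and the ligand in PKO-6, at log2 fold changes of 4.46 (SE 0.129) and -3.71 (SE 0.125). Of 21 tested Notch and Hedgehog genes 6 (28.6%) were called higher and 7 (33.3%) lower (median -0.34). The receptor gene *Notch4* had 52.4, 61.8 and 60.0 in PKO-1 and 627, 694 and 557 in PKO-6, and *Gas1*, a co-receptor for Hedgehog ligands, had 6237, 6468 and 6996 in PKO-1 and 820, 998 and 634 in PKO-6, so these were at opposite ends.

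Many genes of the integrated stress response were lower in PKO-1. This programme lets cells raise the factor ATF4, and with it amino acid synthesis and transport, when translation or mitochondria are disturbed. Of 38 tested members 0 were called higher in PKO-1 and 26 (68.4%) lower, against 11.3% and 17.7% of all tested genes, with a median log2 fold change of -0.84. *Ddit3*, which encodes the factor CHOP, had 1184, 1093 and 1062 normalized counts in PKO-1 and 5093, 4284 and 4349 in PKO-6. The clones did not overlap, at a log2 fold change of -2.04 (SE 0.0815, adjusted p = 1.22e-10, edgeR quasi-likelihood test), and PKO-1 lay near the 1016 ± 52.4 of TM6 and PKO-6 near the 4600 ± 381 of rho0. The pseudokinase *Trib3* had 2732, 2708 and 2509 in PKO-1 and 10866, 10497 and 9261 in PKO-6, and *Chac1*, which degrades glutathione, had 1728, 1879 and 1643 in PKO-1 and 6815, 6737 and 5737 in PKO-6. Each was higher in all PKO-6 cultures, at log2 fold changes of -1.95 (SE 0.0859) and -1.88 (SE 0.0887). *Cth*, which makes cysteine, had 3391, 3243 and 2763 in PKO-1 and 10510, 10619 and 9990 in PKO-6, while TM6 had 664 ± 29.6 and rho0 11772 ± 865. PKO-1 was therefore between TM6 and PKO-6 for this gene. *Atf4* itself had 16674, 16723 and 15202 in PKO-1 and 34437, 35944 and 33327 in PKO-6, a log2 fold change of -1.09 (SE 0.0675). The asparagine synthetase *Asns* stood at -1.03 (SE 0.0626). The serine synthesis gene *Psat1* was not called, at -0.13 (adjusted p = 0.145, edgeR), nor was *Hspa5*, the chaperone of the unfolded protein response, at -0.20 (adjusted p = 0.0113, edgeR).

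Of 24 tested glycolysis genes 7 (29.2%) were called higher in PKO-1 and 0 lower (median 0.30), beside 11.3% and 17.7% of all tested genes. The lactate dehydrogenase *Ldhb* had 373, 403 and 355 normalized counts in PKO-1 and 77.8, 87.1 and 71.7 in PKO-6, and *Ldha* had 52973, 51811 and 48056 in PKO-1 and 29403, 30833 and 25792 in PKO-6. Both isoforms were higher in PKO-1, at log2 fold changes of 2.26 (SE 0.108) and 0.83 (SE 0.0839), as was the lactate exporter *Slc16a3* at 1.14 (SE 0.0843). *Gapdh* was not called, at 0.34 (adjusted p = 0.00578, edgeR). Nuclear genes of oxidative phosphorylation had 13 of 75 tested called higher in PKO-1 (17.3%) and 1 lower (median 0.14, or 0.08 to 0.23 with single libraries left out). Without PKO-1 replicate 2 these were 8 and 2, and 3 were called lower without PKO-6 replicate 3. The gene called lower, *Cox6a2*, is a cytochrome oxidase subunit of heart and skeletal muscle, with 41.7, 80.9 and 61.0 normalized counts in the PKO-1 cultures against 1066, 991 and 853 in PKO-6, and 2.18 ± 1.08 in TM6. The clones did not overlap, at a log2 fold change of -3.97 (SE 0.202), and *Ndufb10* of complex I led the other side at 0.99 (SE 0.0783). Thus none of the 13 genes called higher passed a log2 fold change of 1.

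Genes that act on mitochondrial DNA and RNA are the field of PNPase itself. Among 36 tested genes of mtDNA maintenance 3 (8.33%) were called higher in PKO-1 and 5 (13.9%) lower, beside 11.3% and 17.7% of all tested genes. Their median of 0.03 ran from 0.02 to 0.07 with single libraries left out, and with chromosome medians removed it was -0.03, with 2 called higher and 3 lower. The ADP/ATP carrier *Slc25a4* had 12324, 12852 and 11630 normalized counts in PKO-1 and 5938, 6301 and 5442 in PKO-6, and PKO-1 was higher in each culture (log2 fold change 1.06, SE 0.0809). *Top1mt*, the mitochondrial topoisomerase, was lower at -0.71 (SE 0.0636), and *Polg2*, a subunit of the mtDNA polymerase, was not called at 0.41 (adjusted p = 0.0420, edgeR). In mitochondrial RNA handling 1 of 24 was called higher (4.17%) and 4 lower (16.7%), with a median of -0.09 (-0.03 with chromosome medians removed). None was called higher without PKO-6 replicate 3 or with chromosome medians removed. *Pnpt1* was among those lower. *Rnaset2a* and *Rnaset2b*, near-identical copies of a ribonuclease gene whose counts could be split between them, were lower by -0.86 (SE 0.0928) and -0.74 (SE 0.0877). Mitochondrial ribosomal proteins had 6 of 77 called higher (7.79%) and 1 lower (1.30%, median 0.17), the 6 becoming 10 without PKO-1 replicate 3 and 3 with chromosome medians removed. Dropping PKO-6 replicate 2 left 0 called lower. *Mrpl33*, for example, had 2413, 2525 and 2292 normalized counts in PKO-1 and 1539, 1555 and 1383 in PKO-6, higher in every PKO-1 culture.

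Of 19 tested genes of sterol synthesis 3 (15.8%) were called higher in PKO-1 and 2 (10.5%) lower (median 0.22), beside 11.3% and 17.7% of all tested genes, and the 2 became 1 on leaving out any PKO library other than PKO-6 replicate 1. The 3 became 5 when PKO-6 replicate 2 was dropped, and 5 with 0 lower when chromosome medians were removed. *Cyp51*, which demethylates lanosterol, had 2184, 1972 and 2235 normalized counts in PKO-1 and 1300, 1507 and 1421 in PKO-6. Both clones were far below the 14660 ± 697 of TM6, and the log2 fold change between them was 0.60 (SE 0.0661). No call of this list passed a log2 fold change of 1, and that of *Cyp51* also ended in a test against 0.5. Genes that control sterols had 3 of 19 called higher and 2 lower, the same shares (median 0.08, or 0.01 to 0.17 with single libraries left out), the 3 becoming 5 without PKO-1 replicate 2 and the 2 becoming 1 without PKO-6 replicate 2. Fatty acid synthesis had 4 of 17 (23.5%) called in each direction, with a median of 0.03 that was -0.03 without PKO-6 replicate 3, 0.11 without PKO-6 replicate 2 and 0.20 with chromosome medians removed. The elongase *Elovl3* had 1.19, 3.20 and 2.07 in PKO-1 and 210, 221 and 192 in PKO-6, while the desaturase *Scd1* was higher in PKO-1 at a log2 fold change of 0.87 (SE 0.0515).

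Of 55 tested genes of DNA replication and mitosis 23 (41.8%) were called higher in PKO-1 and 0 lower, against 11.3% and 17.7% of all tested genes, with a median of 0.44, and 19 were called higher with chromosome medians removed. None of the 23 passed a log2 fold change of 1, as the largest of the list was 0.96. *Mki67*, the gene of the proliferation marker Ki-67, had 37336, 40724 and 40135 normalized counts in PKO-1 and 18638, 20093 and 22145 in PKO-6. PKO-1 was higher in every culture, at a log2 fold change of 0.96 (SE 0.0923, adjusted p = 8.46e-07, edgeR quasi-likelihood test), with 36365 ± 1865 in TM6 and 23303 ± 3046 in rho0. Thymidine kinase, *Tk1*, had 6368, 6905 and 6460 in PKO-1 and 3507, 3853 and 3068 in PKO-6, and the spindle motor *Kif11* 18107, 18127 and 17609 against 9835, 10465 and 10729. The changes were alike in size, at log2 fold changes of 0.92 (SE 0.0803) and 0.80 (SE 0.0569). *Foxm1*, a factor that drives mitotic genes, was not called at 0.46 (SE 0.0473, adjusted p = 1.73e-06, edgeR), because its change was under the size threshold. Regulators of G1 had 5 of 20 called higher and 1 lower (median 0.12, or 0.07 with chromosome medians removed). Of the inhibitors of cyclin-dependent kinases, *Cdkn2d* had 913, 899 and 865 normalized counts in PKO-1 and 310, 366 and 301 in PKO-6, whereas *Cdkn1a*, the gene of p21 and the only gene of the list called lower, had 4333, 4468 and 4493 in PKO-1 and 9808, 9414 and 8771 in PKO-6. The log2 fold changes were 1.46 (SE 0.104) and -1.07 (SE 0.0676), and *Cdkn2c* and *Cdkn1b* were called higher as well, at 1.32 and 0.72 (the latter not past 1).

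Targets of the tumour suppressor p53 were called more often as lower in PKO-1, with 1 of 24 tested called higher (4.17%) and 12 lower (50.0%), against 11.3% and 17.7% of all tested genes (median -0.52); the 1 became 3 with chromosome medians removed. Several of them, among them *Sesn2* and *Pmaip1*, are also induced in the integrated stress response. *Perp*, a membrane protein of cell death and desmosomes, had 920, 945 and 856 normalized counts in PKO-1 and 7421, 7481 and 7624 in PKO-6. PKO-6 exceeded all other lines, with 3615 ± 319 in TM6 and 1952 ± 147 in rho0, and the log2 fold change was -3.05 (SE 0.0756, adjusted p = 1.35e-12, edgeR quasi-likelihood test). The stress sensor *Gadd45a* had 643, 615 and 570 in PKO-1 and 3619, 2924 and 3526 in PKO-6, and *Pmaip1*, the gene of the death factor NOXA, had 750, 602 and 618 in PKO-1 and 2490, 2333 and 2888 in PKO-6. Both were lower in every PKO-1 culture, at log2 fold changes of -2.46 (SE 0.0785) and -1.97 (SE 0.0953). *Bax* was not called, at -0.17 (adjusted p = 0.0725, edgeR).

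Many genes of antigen presentation by MHC class I were lower in PKO-1, and several interferon genes were higher. Of 22 tested genes of class I presentation 1 was called higher in PKO-1 (4.55%) and 12 lower (54.5%), against 11.3% and 17.7% of all tested genes, with a median of -1.24; the 1 became 2 without PKO-6 replicate 2 or 3 and 0 with chromosome medians removed. *H2-K1*, a classical class I heavy chain, had 771, 836 and 770 normalized counts in PKO-1 and 9348, 9421 and 8424 in PKO-6. PKO-6 was far higher in each culture, at a log2 fold change of -3.51 (SE 0.0758, adjusted p = 4.34e-13, edgeR quasi-likelihood test), and TM6 had 1391 ± 54.2 and rho0 7151 ± 624. *Nlrc5*, the transcriptional activator of class I genes, had 190, 208 and 222 in PKO-1 and 1641, 1346 and 1634 in PKO-6. The peptide transporter *Tap1* had 80.9, 88.4 and 85.8 against 835, 901 and 774. All of these were lower in PKO-1, at log2 fold changes of -2.89 (SE 0.137) and -3.29 (SE 0.110), and so were the light chain *B2m* at -0.94 (SE 0.0588) and *H2-D1*, with means of 3857 ± 132 and 15447 ± 1211. *H2-Q8* was without counts in the PKO-1 libraries and had 467, 434 and 401 normalized counts in PKO-6, at least 132-fold higher. *H2-Q7* had 3.57, 0 and 1.03 in PKO-1 and 576, 578 and 497 in PKO-6. *H2-D1* overlaps *H2-L* on the same strand and *B2m* overlaps *Patl2* on the other. *H2-Q8* and *H2-Q7* overlap *H2-Q6* and *H2-Q9* and resemble each other and *H2-K1* and *H2-D1* in sequence, so reads could be split among them and their separate levels are uncertain.

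Interferon stimulated genes had 12 of 42 called higher in PKO-1 (28.6%) and 6 lower (14.3%), beside 11.3% and 17.7% of all tested genes (median 0.35). *Ifi27* had 894, 1069 and 966 normalized counts in PKO-1 and 206, 181 and 156 in PKO-6, and *Ifit1*, which binds foreign RNA, had 337, 306 and 250 in PKO-1 and 80.2, 95.3 and 97.0 in PKO-6. These were higher in all PKO-1 cultures, at log2 fold changes of 2.43 (SE 0.123) and 1.71 (SE 0.123), whereas *Parp14* was lower at -2.43 (SE 0.132). *Ifi27* and *Ifi27l2a* lie on opposite strands of one place. Sensors of nucleic acids had 5 of 15 called higher (33.3%) and 0 lower (median 0.44), the 5 becoming 3 without PKO-1 replicate 1. The RNA sensor *Ifih1*, the gene of MDA5, had 267, 288 and 297 in PKO-1 and 165, 166 and 175 in PKO-6, all PKO-1 cultures being higher (log2 fold change 0.75, SE 0.0915), while its adaptor *Mavs* was not called at 0.18 (adjusted p = 0.00916, edgeR). No sensor passed a log2 fold change of 1, the largest being 0.98, and the call of *Ifih1* also ended in a test against 0.5. Chemokines and cytokines had 7 of 23 called higher (30.4%) and 5 lower (21.7%, median 0.10, but 0.02 without PKO-1 replicate 3, 0.17 without PKO-1 replicate 2 and 0.18 with chromosome medians removed). *Ccl5* had 210, 206 and 157 in PKO-1 and 34.4, 43.5 and 28.1 in PKO-6, and *Ccl2* had 78.6, 85.2 and 88.9 in PKO-1 and 179, 273 and 224 in PKO-6. The first was higher and the second lower in PKO-1, at log2 fold changes of 2.43 (SE 0.186) and -1.41 (SE 0.151).

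**Figure D3:**
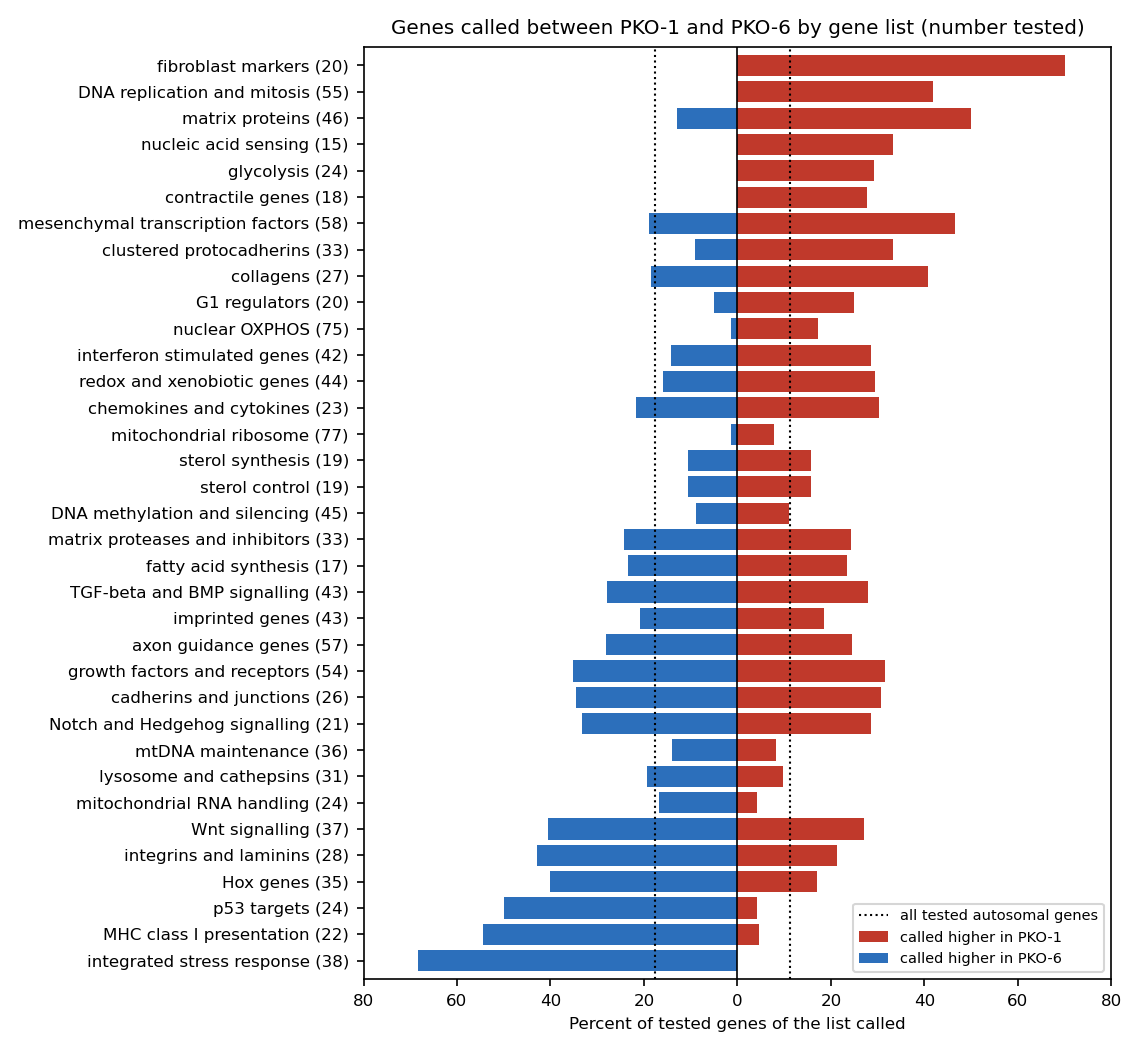
Percent of the tested genes of each list called higher in PKO-1 (right) or in PKO-6 (left), for lists of at least 15 tested genes, with the number tested in brackets. Dotted lines mark all tested autosomal genes, 11.3% and 17.7%, and the bars reach 70.0% to the right for fibroblast markers and 68.4% to the left for the integrated stress response.

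Redox and xenobiotic genes had 13 of 44 called higher in PKO-1 (29.5%) and 7 lower (15.9%), beside 11.3% and 17.7% of all tested genes (median 0.19, or 0.15 to 0.30 with single libraries left out). *Nqo1*, a quinone reductase that the factor NRF2 induces, had 3778, 3415 and 4098 normalized counts in PKO-1 and 762, 939 and 767 in PKO-6. *Cyp1b1*, a cytochrome that the aryl hydrocarbon receptor induces, had 5727, 5520 and 5841 in PKO-1 and 1104, 1010 and 1121 in PKO-6. Both were higher in PKO-1 without overlap, at log2 fold changes of 2.20 (SE 0.0986) and 2.40 (SE 0.0569). *Aldh1l2*, a mitochondrial folate enzyme, was lower at -1.31 (SE 0.0530). *Cyba*, a subunit of the NADPH oxidase on chromosome 8, had 490, 473 and 487 in PKO-1 and 1.64, 1.04 and 0 in PKO-6, with 750 ± 67.1 in TM6 and 259 ± 28.0 in rho0, so PKO-6 was the only line near 0. Lysosomal genes had 3 of 31 called higher (9.68%) and 6 lower (19.4%), near those shares (median 0.08, or 0.05 without PKO-1 replicate 2 and -0.05 with chromosome medians removed). Cathepsin C, *Ctsc*, had 3.57, 4.26 and 9.31 in PKO-1 and 308, 358 and 369 in PKO-6, well apart (log2 fold change -5.86, SE 0.256), while *Tfeb*, a master factor of lysosomal genes, was not called at 0.25 (adjusted p = 0.0959, edgeR).

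Genes of DNA methylation and silencing had 5 of 45 called higher in PKO-1 (11.1%) and 4 lower (8.89%), no more than the 11.3% and 17.7% of all tested genes (median 0.16); the 5 became 3 with chromosome medians removed. *Zfp57*, which protects methylation at imprinted sites, had 538, 478 and 711 normalized counts in PKO-1 and 1706, 1185 and 1857 in PKO-6. The DNA methyltransferase *Dnmt3b* had 71.4, 66.0 and 71.4 in PKO-1 and 193, 134 and 186 in PKO-6. Both were lower in every PKO-1 culture, at log2 fold changes of -1.46 (SE 0.192) and -1.30 (SE 0.194). Imprinted genes had 8 of 43 called higher (18.6%) and 9 lower (20.9%), with a median of -0.08 (-0.13 without PKO-1 replicate 3). *Snrpn*, which shares its transcript with *Snurf*, had 399, 332 and 308 in PKO-1 and 0.819, 1.04 and 0 in PKO-6, and *H19* 850, 767 and 800 against 38.5, 11.4 and 15.5. Clustered protocadherins, whose exons overlap so that their separate levels are uncertain, had 11 of 33 called higher (33.3%) and 3 lower (9.09%, median 0.27).

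By chromosome, the median log2 fold change was 0.30 on chromosome 8, -0.37 on chromosome 9 and -0.41 on chromosome 13, and from -0.19 (chromosome 10) to 0.20 (chromosome 16) on the others. On chromosome 8, 214 of 739 tested genes were called higher and 61 lower, on chromosome 9, 35 and 261 of 776, and on chromosome 13, 36 and 207 of 558, beside 11.3% and 17.7% of all tested genes. Removing each chromosome's median left 3493 genes called, of which 3152 were among the 3930.

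Near-absent genes are those with 3 counts or fewer in each library of one clone and an average of 100 normalized counts or more in the other. There were 24 in PKO-1, spread over 13 chromosomes, and 5 in PKO-6. The 24 had means of 102 to 1085 in PKO-6 (median 189), and 7 had no count at all in PKO-1: *Trpa1*, *Krt20*, *Klf12*, *H2-Q8*, *Spint1*, *Slc52a3* and *Eid2*. Against the floor of 3 counts per library PKO-6 was at least 40.4-fold higher for *Trpa1*, an ion channel, at least 38.2-fold for *Krt20*, a keratin, and at least 39.0-fold for *Spint1*, a protease inhibitor. *Klf12*, a repressor of transcription, had 288, 246 and 320 normalized counts in PKO-6, at least 86.5-fold higher, with 120 ± 4.96 in TM6 and 119 ± 7.15 in rho0. *Eid2*, an inhibitor of cell differentiation, had 156, 166 and 167 in PKO-6, at least 49.5-fold higher, with 190 ± 19.1 in TM6 and 216 ± 7.73 in rho0. For *Klf12* and *Eid2* PKO-1 was the only line without counts. TM6 reached 100 normalized counts for 4 of the 24 (*Eid2*, *Hoxb9*, *Klf12* and *Mark1*) and lay at the floor itself for 7, while rho0 reached 100 for 5 and lay at the floor for 4. The kinase gene *Mark1* had 3.57, 0 and 1.03 in PKO-1, 174, 220 and 202 in PKO-6 and 205 ± 20.6 in TM6. The 5 near-absent in PKO-6 were *Cyba*, *Foxf2*, *Snrpn*, *Tspan11* and the aldehyde dehydrogenase *Aldh3a1*, with PKO-1 means of 106 to 483, and TM6 reached 100 for *Cyba* and *Foxf2*.

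The promoters of genes near absent in one clone and expressed in TM6 (at least 100 normalized counts, all but *Hoxb9*) are shown with their CG pairs, the sites where mouse DNA is methylated. The RefSeq promoter table (GRCm38.p6) held 16 of the 24 genes, 4 of the 5 and 10205 of the 13558 tested (75.3%). With fewer than 80% matched, a comparison of CG numbers between the genes and all others is void and none is made. The 250 bases before the start are printed 5' to 3' with each CG in capitals, a pair that reads the same on both strands and that 98.9% of the 10205 promoters hold at least once. *Eid2* (chr7:28267631-28267880, plus strand) holds 23 CG pairs, *Klf12* (chr14:100149797-100150046, minus strand) 6, *Mark1* (chr1:184999550-184999799, minus strand) 52, *Foxf2* (chr13:31625566-31625815, plus strand) 21 and *Cyba* (chr8:122432941-122433190, minus strand) 6. *Eid2* and *Klf12* had no count in PKO-1, *Mark1* no more than 3 counts in any PKO-1 library and *Foxf2* and *Cyba* no more than 2 in any PKO-6 library, and methylation was not analysed here.
Eid2 promoter: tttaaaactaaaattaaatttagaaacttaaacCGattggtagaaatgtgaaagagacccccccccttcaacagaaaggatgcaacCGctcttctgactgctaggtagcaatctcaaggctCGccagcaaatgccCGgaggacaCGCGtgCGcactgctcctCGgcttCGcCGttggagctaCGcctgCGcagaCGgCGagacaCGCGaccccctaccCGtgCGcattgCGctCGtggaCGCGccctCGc
Klf12 promoter: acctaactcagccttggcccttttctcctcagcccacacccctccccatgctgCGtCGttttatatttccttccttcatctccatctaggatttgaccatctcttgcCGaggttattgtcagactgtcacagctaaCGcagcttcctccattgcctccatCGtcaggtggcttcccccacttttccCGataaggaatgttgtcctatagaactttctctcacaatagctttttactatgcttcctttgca
Mark1 promoter: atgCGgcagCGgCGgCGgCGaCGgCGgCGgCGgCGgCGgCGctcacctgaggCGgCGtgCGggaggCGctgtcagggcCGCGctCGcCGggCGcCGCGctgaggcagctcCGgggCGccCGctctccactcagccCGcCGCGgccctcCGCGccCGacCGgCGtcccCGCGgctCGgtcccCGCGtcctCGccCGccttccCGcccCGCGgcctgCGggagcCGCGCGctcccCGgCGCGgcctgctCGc
Foxf2 promoter: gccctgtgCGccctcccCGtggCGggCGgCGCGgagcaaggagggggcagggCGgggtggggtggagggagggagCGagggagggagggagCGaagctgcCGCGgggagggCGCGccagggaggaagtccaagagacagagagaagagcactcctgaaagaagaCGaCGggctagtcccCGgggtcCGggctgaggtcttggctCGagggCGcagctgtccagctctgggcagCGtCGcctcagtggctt
Cyba promoter: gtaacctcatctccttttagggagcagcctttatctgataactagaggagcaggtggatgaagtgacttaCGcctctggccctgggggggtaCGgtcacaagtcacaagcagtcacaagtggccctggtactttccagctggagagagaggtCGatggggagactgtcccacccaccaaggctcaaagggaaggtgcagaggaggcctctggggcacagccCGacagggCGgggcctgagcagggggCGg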

How the data were processed

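RNA was measured in 12 samples, 3 cultures of each of 4 lines, and the 6 of PKO-1 and PKO-6 were compared. A library here is the merged reads of a sample's technical duplicates. The authors depleted ribosomal RNA and estimated transcript abundance with RSEM 1.2.25 and bowtie2 against RefSeq transcripts of mm10 (GRCm38). The deposited gene table holds expected counts (estimated counts, not normalized), rounded here to whole numbers. The deposited per-library files give the authors' TPM, summed here over the transcripts of a gene, and gene positions. Of the 24453 genes, 23332 were autosomal, 1112 lay on X or Y and 9 were mixed or unplaced.

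In R 4.3.3, edgeR 4.0.16 kept 14026 genes (filterByExpr, minimum count 10), scaled libraries by TMM and fitted the 4 lines together, so they share 1 estimate of the spread. The quasi-likelihood test compared PKO-1 with PKO-6, with p adjusted by Benjamini-Hochberg over all 14026 genes. The SE is the log2 fold change divided by the square root of F. Where a clone had 0 counts in every library, a lower bound against a floor of 3 counts per library stands in place of a fold change, and where it had 1 to 3, normalized counts alone are given; the floor covers counting error only. The fit was also run on simulated counts with known changes, and no result given here rests on that run.

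Named genes are *Pnpt1*, the 12 genes in each direction that were called with the largest change, averaged 100 normalized counts or more and did not overlap between clones, up to 5 called members of each list by size of change with the same minimum mean, members given as not called, and near-absent genes. Not every gene that the rule admits is printed. *Atf4*, *Asns*, *B2m*, *H2-D1*, *Col4a2*, *Col6a1* and *Col6a2* were added after their values were seen. The members and lists were chosen with earlier results of these data known. Alternatives were DESeq2 1.42.0 (size factors, Wald test), no filter, a replicate block, PKO libraries alone, other thresholds, glmTreat, *Rn45s* left out, chromosome medians removed and the omission of each PKO library. The counts of each list under omissions, other scalings and chromosome medians removed were added after the data were seen.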

Additional observations from a re-analysis of the deposited data

How the results depend on the processing

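The 3930 called genes (1535 higher in PKO-1, 2395 lower) became 1866 (522 and 1344) at a log2 fold change above 1, 2351 (807 and 1544) with glmTreat against 0.5, and 6765, of which 3285 were higher, by adjusted p alone; thresholds of other strictness make these differences by construction. Other settings gave 3493 to 4261. The share called lower was 60.9%, 72.0% above 1 and 51.4% by adjusted p alone, and 59.1% to 65.7% otherwise. Leaving out each PKO library in turn gave 3674 to 4022 called genes, 1443 to 1646 higher and 2223 to 2376 lower, and *Pnpt1* at -0.73 to -0.54. *Pnpt1*, at -0.65, was no longer past a threshold of 1 or, with glmTreat, past 0.5 (adjusted p = 0.07 there, and 1.08e-10 to 0.07 over all settings). Of 236 genes followed singly, 60 were no longer called above 1 and 33 with glmTreat against 0.5. The 29 near-absent genes became 84 with up to 10 counts allowed and 58 with a mean of at least 50. The block on replicate number gave 3870 called genes (1522 and 2348) and *Pnpt1* at -0.64. The numbers did not pair the cultures: same-numbered libraries had correlations of -0.269, 0.203 and 0.087 over 11128 genes. Among the PKO-1 libraries only replicate 2 correlated best with its own number, and among those of PKO-6 replicates 2 and 3 did. List counts without single libraries, under other scalings or without chromosome medians were chosen after seeing the data. Genes with few counts are limited by depth.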
